A study of Mus musculus with 26 samples.

Results

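Sox9, Sox10, Foxd3, Tfap2a, Tfap2b, Snai2, Ets1 and Erbb3 are regulators of the neural crest, and their levels are described here in mouse gastruloids, a culture model in which aggregated embryonic stem cells form an elongating structure with trunk and tail tissues. The 8 genes were taken by their symbols from a table of 55141 genes, and each symbol matched 1 row. Polyadenylated RNA was sequenced in 26 libraries from 8 lines that carry edited alleles of HoxB, one of the clusters of body axis genes. The series is titled as a study of how CTCF, a protein that binds DNA, insulates Hoxb13.

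Every line carries HoxB Del/Del(i9-13), so no line has an unedited cluster. InsDel5to10 (2 libraries at 120h) carries Ins(CBS5-10) with Del(CBS5-10), InsDel7to10 (2 at 120h) has Del(CBS7-10) in its place, and InsDel8to10 (1 each at 120h and 144h) has Del(CBS8-10). InvClone1 (1 at 96h, 4 at 120h, 2 at 144h and 1 at 168h after aggregation) and InvClone2 (2 at 120h) are clones 1 and 2 with Ins(CBS5-10):Inv(CBS5-10). InvDel7to10 (1 each at 120h and 144h) adds Del(CBS7-10) to that inverted allele. Ins (3 at 120h and 1 at 144h) carries Ins(CBS5-10), and Del (3 at 120h and 1 at 144h) has no further edit. The labels also give each library a name, ISML_first, ISML_second, ISML_third or TruSeq_second, and the 2 TruSeq_second libraries, InvClone1 at 120h replicates 2 and 3, came from another kit. Whether replicates are separate cultures is not stated in the labels, and the p-values therefore reflect spread between libraries that may be technical.

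The neural crest is a population of cells that arises at the border of the neural plate and the surface ectoderm, leaves the dorsal neural tube and forms sensory and autonomic neurons, glia and pigment cells, and in the head also cartilage and bone. Border factors such as Pax3, Pax7, Zic and Msx proteins act first, together with the AP-2 factors Tfap2a and Tfap2b. Crest specifiers, among them Foxd3, Sox9, Sox10, Snai2 and Ets1, follow, and Erbb3, a receptor for neuregulins, acts in crest cells that migrate and become glia. Several of these genes also work elsewhere: Sox9 in neural tube progenitors, sclerotome and notochord, Ets1 and Snai2 in mesoderm and endothelium, and Erbb3 in epithelia.

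Total counts per library lay between 18746411 and 37716547, with a median of 22616412. Levels are given as counts per 1000000 counts of the TMM-scaled library total (CPM), and 3 counts, the limit that a count of 0 allows, corresponded to 0.0778 to 0.165 CPM. Exact Poisson intervals and this floor cover counting error only. The library of InvClone1 at 144h replicate 2 had 0.0864% of its counts on mitochondrial genes, against 0.587% to 1.51% in the other libraries. In the library of InvClone1 at 120h replicate 2 a count above 0 was found for 54.8% of genes, against 37.5% to 43.4% in the others. As a check of the alleles, Hoxb13 was at 0.281 to 1.11 CPM in the Ins libraries at 120h, against 32.5 to 87.0 CPM in the Del libraries.

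The 8 genes split into 4 that were well above the floor and 4 that stayed under 1 CPM in every library. Foxd3 and Tfap2b, both in the low group, had the promoter windows with the most and the fewest CpG dinucleotides among the members matched in RefSeq, and both are shown for that reason. RefSeq promoter sequences (GRCm38.p6, the 250 bases before and 50 after a gene start, as 300 bases) matched 3 of the 8 members, Foxd3, Tfap2a and Tfap2b. The Foxd3 window lies at chr4:99656049-99656348 on the plus strand and the Tfap2b window at chr1:19211804-19212103 on the plus strand, and CpG dinucleotides are in capitals.
Foxd3: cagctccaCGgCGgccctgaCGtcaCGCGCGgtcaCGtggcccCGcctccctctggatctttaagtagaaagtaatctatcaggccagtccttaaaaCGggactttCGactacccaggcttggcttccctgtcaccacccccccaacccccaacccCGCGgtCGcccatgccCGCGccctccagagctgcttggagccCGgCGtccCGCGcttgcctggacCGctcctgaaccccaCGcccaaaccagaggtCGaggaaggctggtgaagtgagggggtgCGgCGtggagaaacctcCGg
Tfap2b: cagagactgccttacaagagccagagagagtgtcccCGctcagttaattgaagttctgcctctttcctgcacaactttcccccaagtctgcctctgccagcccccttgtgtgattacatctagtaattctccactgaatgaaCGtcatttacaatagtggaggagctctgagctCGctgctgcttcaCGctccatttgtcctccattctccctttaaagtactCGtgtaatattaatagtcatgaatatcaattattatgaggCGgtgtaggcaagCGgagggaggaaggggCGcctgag
The Foxd3 window held 25 CpG, and 18.4% of 32851 promoter windows held as many or more. The Tfap2b window held 8, and 48.6% of windows held as many or more. A pair of windows for Tfap2a, on the minus strand at chr13:40734871-40735170 and chr13:40733746-40734045, held 11 and 15. The windows of Tfap2b and Tfap2a lie inside the deposited gene positions (chr1:19208913-19238576 and chr13:40715301-40738376). They are therefore not at the outer starts of these 2 genes. The letters GCCNNNGGC, a motif of AP-2 proteins that reads alike on both strands, were not in any of these 4 windows, and 16.6% of all windows held them. This says only that these letters are not in these windows.

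Sox10, which keeps crest cells multipotent and is needed for glia and pigment cells, lies at chr15:79154907-79165240 in mm10. Its counts ran from 0 to 16 over the 26 libraries, with 18 libraries at or under 3 counts and 4 at 0. The highest level was 0.730 CPM, in InsDel8to10 at 144h. Foxd3 (chr4:99656298-99658622), a forkhead factor of crest cells before they migrate, had 0 to 11 counts, at or under 3 in 20 libraries and at 0 in 7. Its highest level was 0.439 CPM, in InsDel7to10 at 120h replicate 1. Tfap2b (chr1:19208913-19238576) had 0 to 14 counts, at or under 3 in 20 libraries and at 0 in 9, with at most 0.621 CPM. Tfap2a (chr13:40715301-40738376), the AP-2 factor of the border and early crest, had 1 to 19 counts, was at or under 3 in 6 libraries and reached at most 0.745 CPM. None of these genes reached 1 CPM in any line or stage. The summed 144h libraries named ISML_second, which hold 5 lines, had 0.356 CPM of Sox10 (95% Poisson interval 0.253 to 0.487). The gastruloids are bulk samples, in which fewer cells of a type and less RNA per cell cannot be told apart.

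The other 4 members were present in every library. Ets1 (chr9:32636247-32757820), a factor that promotes the delamination of crest cells, had a lowest, median and highest level of 21.3, 162 and 216 CPM. Sox9 (chr11:112782223-112787760), which promotes the formation and survival of crest cells, had 8.03, 22.1 and 100 CPM. Snai2 (chr16:14705851-14709385), a repressor of Cdh1 during epithelial-mesenchymal transition, had 1.69, 4.67 and 8.54 CPM. Erbb3 (chr10:128567522-128589652) had 1.14, 6.28 and 10.6 CPM. The SD over libraries was 47.9 CPM around a mean of 153 for Ets1 and 25.6 around 32.1 for Sox9. For Erbb3 it was 2.95 around 5.81 and for Snai2 1.85 around 4.68. Relative to the mean, Sox9 thus varied most and Ets1 least of these genes.

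Levels of different genes were compared per length with the FPKM values that the authors deposited. The median FPKM over the 26 libraries was 26 for Ets1, 4.35 for Sox9, 1.88 for Snai2 and 0.767 for Erbb3. Next came Tfap2a at 0.0824, Sox10 at 0.0394, Foxd3 at 0.0175 and Tfap2b at 0.0155 FPKM. Ets1 exceeded Sox9 in 25 of 26 libraries, Sox9 exceeded Snai2 in 25, Snai2 exceeded Erbb3 in 26 and Erbb3 exceeded Tfap2a in 26. Further down the order was loose: Tfap2a exceeded Sox10 in 18 libraries, Sox10 exceeded Foxd3 in 13 and Foxd3 exceeded Tfap2b in 13. The ranges over libraries overlapped for every pair of neighbours, and the 3 lowest genes were not separated at this depth.

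**Figure D1:**
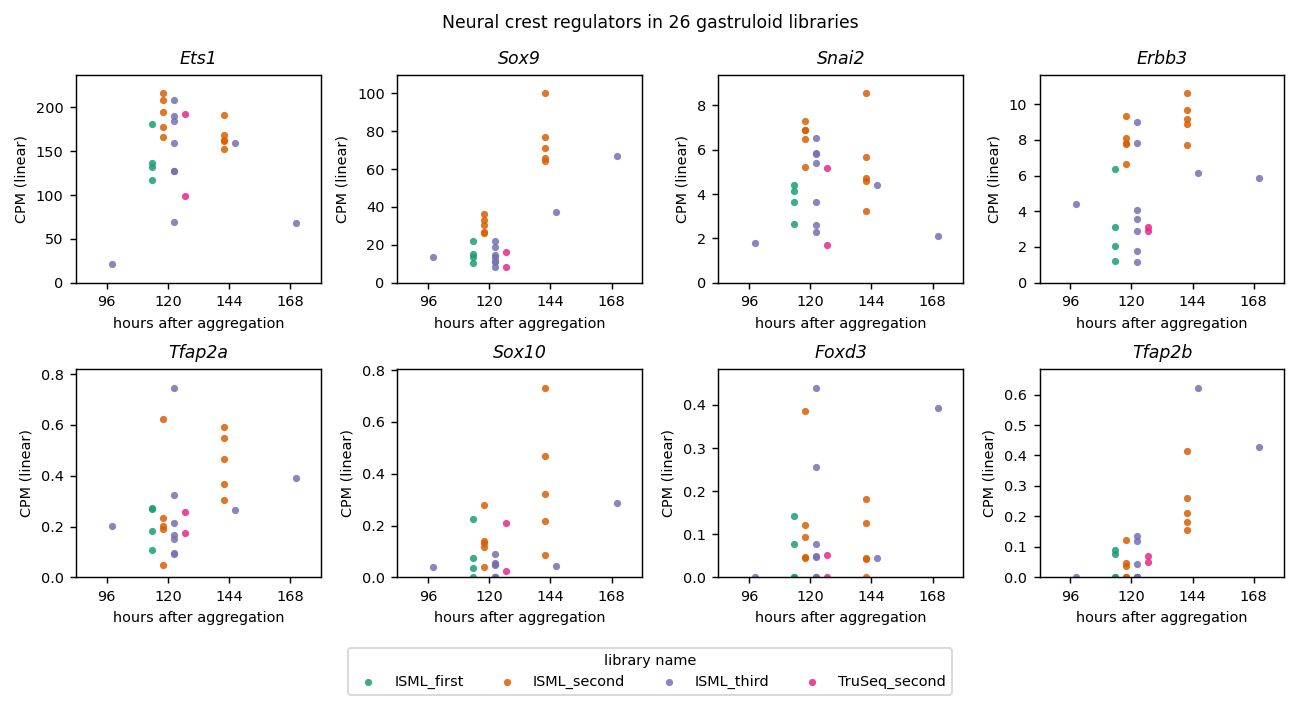
CPM (linear axes, scaled separately) of the 8 neural crest regulators in each of 26 libraries, 1 point per library, against hours after aggregation and coloured by library name. Sox9 reaches 100 CPM at 144h, Ets1 is lowest at 96h with 21.3 CPM, and the 4 genes of the lower row stay under 0.745 CPM or at it.

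At 120h, the stage with all 8 lines, Sox9 levels ran from 8.03 to 36.3 CPM over 18 libraries, with a median of 15.7 CPM. InsDel5to10 had 13.6 and 14.4 CPM, InsDel7to10 18.7 and 10.7 CPM, and InvClone2 11.4 and 21.9 CPM. InvClone1 had 8.03, 8.16, 16.4 and 26.5 CPM, Ins had 10.3, 22.2 and 26.7 CPM, and Del had 14.9, 13.8 and 32.9 CPM. The 1 library of InsDel8to10 had 30.6 CPM and that of InvDel7to10 36.3 CPM. The lines overlapped, and the 5 ISML_second libraries, at 26.5 to 36.3 CPM, all lay above the other 13, at 8.03 to 22.2 CPM.

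Ets1 at 120h averaged 98.8 ± 41.3 CPM in InsDel5to10 (SD, n = 2), 184 ± 33.8 CPM in InsDel7to10 (n = 2), 156 ± 40.8 CPM in InvClone2 (n = 2) and 165 ± 44.5 CPM in InvClone1 (n = 4). It averaged 170 ± 33.1 CPM in Ins and 140 ± 24.7 CPM in Del (SD, n = 3 each), and stood at 208 CPM in InsDel8to10 and 216 CPM in InvDel7to10. InsDel5to10 was lowest and InvDel7to10 highest, and neighbours in this order did not differ beyond their spread. Snai2 at 120h averaged 4.09 ± 2.53 CPM in InsDel5to10, 4.50 ± 1.24 CPM in InsDel7to10 and 4.56 ± 2.76 CPM in InvClone2 (SD, n = 2 each). For InvClone1 the Snai2 mean was 5.0 ± 2.38 CPM (n = 4), for Ins 4.98 ± 1.70 CPM and for Del 4.00 ± 1.29 CPM (n = 3 each), with 6.88 CPM in InsDel8to10 and 6.50 CPM in InvDel7to10. The differences between line means of Snai2 were smaller than the SD within lines for the replicated lines.

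Erbb3 at 120h was lowest in InsDel7to10, with 1.76 and 1.14 CPM. InsDel5to10 had 3.55 and 9.0 CPM and InvClone2 had 2.88 and 7.80 CPM. The 4 InvClone1 libraries had 4.06, 2.92, 3.14 and 7.84 CPM, Ins had 2.04, 1.22 and 6.62 CPM, and Del had 3.09, 6.39 and 9.31 CPM. InsDel8to10 had 8.13 CPM and InvDel7to10 7.79 CPM. The InsDel7to10 values lay below those of every other line except Ins, whose range of 1.22 to 6.62 CPM overlapped them.

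The stages were compared in the 5 lines with both 144h and 120h libraries named ISML_second, with line as a term of the fit, so the library name did not move with the stage. Sox9 was higher at 144h in all 5 lines and was the only member of those tested past the threshold (edgeR's quasi-likelihood test, Benjamini-Hochberg adjusted p under 0.05). Sox9 was at 71.4 CPM at 144h against 32.9 at 120h in Del, 64.2 against 26.7 in Ins and 100 against 30.6 in InsDel8to10. In InvClone1 it was at 65.9 CPM at 144h against 26.5 at 120h, and in InvDel7to10 at 77.0 against 36.3. The 144h range, 64.2 to 100 CPM, did not overlap the 120h range, 26.5 to 36.3 CPM. The fitted log2 fold change of Sox9 was 1.32 ± 0.10 (SE) with an adjusted p of 1.18e-04 by edgeR, and the ratios in single lines ran from 2.12 in InvDel7to10 to 3.26 in InsDel8to10. Among all 16043 genes tested, 15.1% passed in either direction, 9.33% higher and 5.81% lower at 144h, and 1 of the 5 members tested passed. Sox10, Foxd3 and Tfap2b did not pass the filter on low counts.

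Ets1 did not pass at a log2 difference of -0.18 ± 0.08 (edgeR adjusted p 0.177). Its 144h levels were 153 CPM in Del, 191 in Ins, 162 in InsDel8to10, 169 in InvClone1 and 163 in InvDel7to10, against 166, 195, 208, 178 and 216 CPM of the same lines at 120h. It was lower at 144h in 5 of 5 lines. The InvClone1 library at 144h is replicate 2, the one with 0.0864% mitochondrial counts, and without InvClone1 4934 genes passed, against 2429 with it. Without InvClone1 the log2 difference of Ets1 was -0.22 with an edgeR adjusted p of 0.0467, within a range of 0.0467 to 0.60 over the alternatives. Snai2 was at 8.54 CPM at 144h against 6.90 at 120h in Ins, and was lower at 144h in the other 4 lines, with InvClone1 at 3.23 against 7.30 CPM, the widest gap, in that same library. The lines did not share a direction, and the log2 difference of Snai2 was -0.32 ± 0.20 (edgeR adjusted p 0.331), and -0.13 without InvClone1. Erbb3 was at 7.69 to 10.6 CPM at 144h against 6.62 to 9.31 CPM at 120h, ranges that overlap. The Erbb3 log2 difference was 0.23 ± 0.11 (edgeR adjusted p 0.193), with 4 of 5 lines higher at 144h.

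The 4 low members were summed over the 5 lines. Tfap2b had 27 counts at 144h and 5 at 120h, a ratio of 5.69 (counting interval 2.16 to 18.9). By line these were 6 against 3 counts in Del, 5 against 0 in Ins, 4 against 0 in InsDel8to10, 3 against 1 in InvClone1 and 9 against 1 in InvDel7to10. All 5 lines were higher at 144h, and the exact two-sided sign-flip permutation p was 0.0625, the smallest that 5 lines allow. With no filter on low counts the edgeR log2 difference of Tfap2b was 2.47 ± 0.81 with an adjusted p of 0.0649, which did not pass. In a fit of all 26 libraries it was 3.17 with an adjusted p of 0.0365, but there Tfap2b met the minimum count only through libraries later than 120h, where it is high, since no 120h library held more than 3 counts, so this value is given as a description. Sox10 had 39 counts at 144h against 16 at 120h, a ratio of 2.57 (1.40 to 4.92), and was higher in 4 of 5 lines (exact permutation p 0.250). InsDel8to10 gave 16 of these 39 counts, and Ins went the other way with 2 counts at 144h and 6 at 120h. Tfap2a had 50 counts at 144h against 30 at 120h, a ratio of 1.75 (1.09 to 2.86), higher in 4 of 5 lines, and its log2 difference of 0.91 ± 0.48 did not pass (edgeR adjusted p 0.255). Foxd3 had 9 counts at 144h against 17 at 120h, of which 10 came from InvClone1, and its ratio of 0.557 had a counting interval of 0.219 to 1.32.

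**Figure D2:**
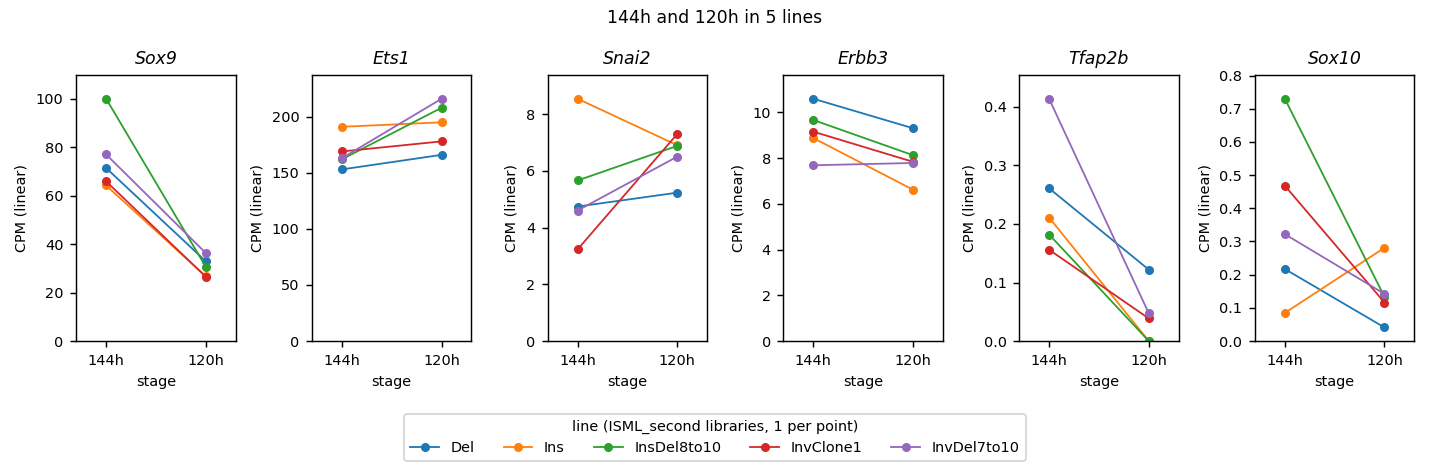
CPM (linear axes, scaled separately) of 6 members at 144h and 120h in 5 lines, with 1 ISML_second library per point and a line joining the stages of each cell line. Sox9 lies between 64.2 and 100 CPM at 144h and between 26.5 and 36.3 CPM at 120h, while the Ets1, Snai2 and Erbb3 ranges of the stages overlap.

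Markers of tissues that also use Sox9 moved between the same libraries. The summed level of 11 neural tube progenitor markers was 522 to 859 CPM at 144h against 225 to 326 CPM at 120h, with no marker at 0 in every library. The 14 sclerotome markers summed to 980 to 1267 CPM at 144h against 1174 to 1346 CPM at 120h, and 8 notochord markers to 51.4 to 80.2 CPM against 87.5 to 118 CPM. Single genes weighed heavily in these sums. Meox1 was at 222 to 314 CPM at 144h against 521 to 586 CPM at 120h. Col2a1 went the other way, at 350 to 662 against 263 to 309 CPM. T was at 9.22 to 37.6 against 54.1 to 82.7 CPM. The median log2 difference was 0.10 for the sclerotome list and 0.13 for the notochord list. Of 11 neural tube progenitor genes tested, 10 rose and 1, Nkx1-2, fell by edgeR's test, with a median log2 difference of 1.94 against -0.007 over all genes. Among them Sox1 rose by 1.91 ± 0.09 (edgeR adjusted p 2.53e-05), Pax6 by 2.98 ± 0.15 (3.17e-05) and Sox2 by 1.58 ± 0.09 (3.38e-05), all log2. Of 13 sclerotome genes tested, 5 rose, among them Pax1, Pax9, Sox6 and Col2a1, and 6 fell. Foxc2 had a log2 difference of -1.27 ± 0.08 (edgeR adjusted p 5.57e-05), Meox1 -1.07 ± 0.09 (1.62e-04) and Tbx18 -1.17 ± 0.11 (3.24e-04). Of 7 notochord genes tested, Shh, Foxj1 and Foxa2 rose and T fell. Of 16 endothelial genes Pecam1 rose and Etv2, Sox17, Tek and Egfl7 fell, and of 14 genes of epithelium and endoderm 8 rose and 3 fell (Sox17, Spink1 and Trh). Of 12 surface ectoderm genes tested, Trp63 and Grhl2 rose and Grhl3, Bmp7 and Wnt6 fell. Their part in the Sox9 result was not tested.

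The wider crest programme was read from lists of textbook genes. Of 14 genes of the border and dorsal neural tube, 12 were tested, 3 rose at 144h (Zic1, Wnt1 and Pax7) and 6 fell, among them Pax3, Zic2, Msx1, Wnt3a and Zic5. Zic1, a zinc finger factor of the neural plate border, rose by 2.52 ± 0.25 log2 (edgeR adjusted p 3.96e-04). Pax3, which acts at the border and also in dermomyotome, had a log2 difference of -1.36 ± 0.14 (4.93e-04), and Zic2, a zinc finger factor of the dorsal neural tube, had -0.95 ± 0.12 (0.00134). The median log2 difference of the list was -0.49, so border genes moved both ways.

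All 20 genes of crest delamination and migration were tested, and 9 rose, 3 fell (Nrp2, Snai1 and Cdh11) and the others did not pass, with a median of 0.40. Ednrb, the endothelin receptor of migrating crest and also of neural progenitors, rose by 3.27 ± 0.18 log2 (edgeR adjusted p 3.38e-05). Cdh6, a cadherin of the dorsal neural tube and early crest, rose by 1.68 ± 0.08 (2.21e-05), Sox5 by 1.40 ± 0.11 (1.27e-04) and the semaphorin and VEGF co-receptor Nrp1 by 0.78 ± 0.09 (7.53e-04). Ngfr, the low-affinity neurotrophin receptor used to sort crest cells, rose by 0.44 ± 0.12 (0.0456), a gene chosen after its values were seen.

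Derivative genes gave a mixed picture. Of 15 genes of crest glia and Schwann precursors, 10 were tested and Fabp7, which radial glia and neural progenitors also express, was the only one to pass, with 2.58 ± 0.14 (edgeR adjusted p 3.43e-05). Cdh19, S100b and Dhh were at or under 3 counts in all 26 libraries. None of the 3 tested melanoblast genes of 8 passed, the median was -0.43, and Tyrp1 and Mlana never exceeded 3 counts. Of 21 genes of sensory and autonomic neurons, 19 were tested, 8 rose and 5 fell, with a median of 0.22. Neurog2 and Neurog1, proneural factors of sensory neurons and also of the neural tube, rose by 3.82 ± 0.23 and 5.16 ± 0.32 log2 (adjusted p 5.37e-05 and 5.83e-05 by edgeR). These lists were scored in bulk RNA, and which cells carried each change was not tested.

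InvClone1 has 1 ISML_third library at each of 96h, 120h, 144h and 168h, so these values have no replicate check and no test. Ets1 stood at 21.3, 190, 160 and 67.6 CPM at these times, with a ratio of 120h over 96h of 8.95 (counting interval 8.17 to 9.82) and of 168h over 144h of 0.424 (0.400 to 0.448). Sox9 stood at 13.3, 8.03, 37.3 and 66.9 CPM, the lowest at 120h, and the ratio of 144h over 120h was 4.64 (3.93 to 5.49). Snai2 stood at 1.79, 5.82, 4.39 and 2.11 CPM, so it peaked at 120h as Ets1 did. Erbb3 varied less, at 4.42, 4.06, 6.17 and 5.89 CPM.

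Of the low members, Tfap2b, Foxd3 and Sox10 had at most 1 count at 96h and 120h in this series, and Tfap2a 5 and 7. In order of time Tfap2b had 0, 0, 14 and 12 counts, Foxd3 0, 0, 1 and 11, Sox10 1, 0, 1 and 8, and Tfap2a 5, 7, 6 and 11. Tfap2b was thus above 3 counts from 144h on, and Foxd3 and Sox10 at 168h only. Summed sclerotome markers were 299, 830, 645 and 451 CPM at the same times, also highest at 120h. Neural tube progenitor markers summed to 283, 275, 474 and 914 CPM, lowest at 120h and highest at 168h. Their part in these levels was not tested.

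**Figure D3:**
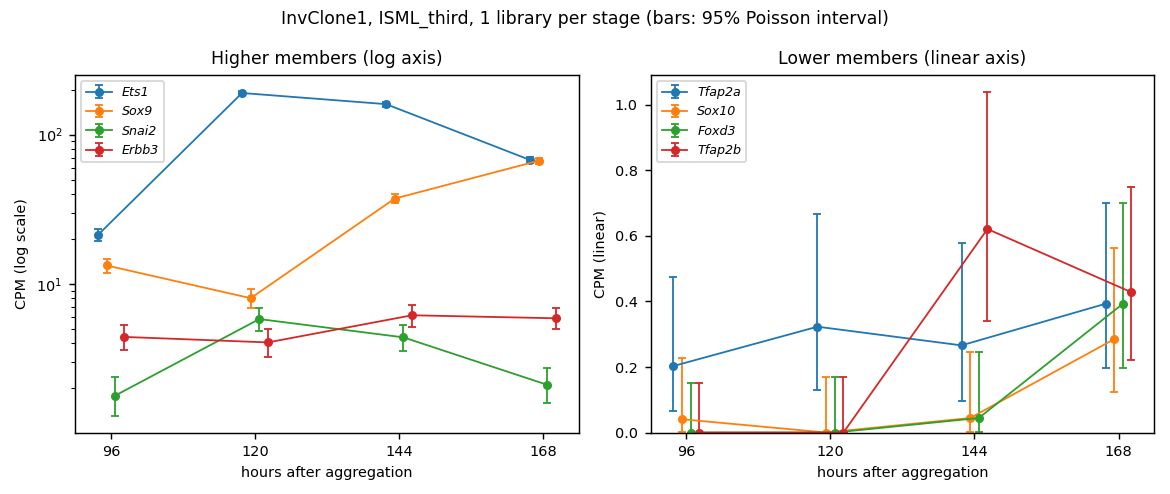
CPM of the 8 members in InvClone1 at 96h, 120h, 144h and 168h, 1 ISML_third library per time, with 95% Poisson intervals as bars; the left axis is logarithmic and holds the 4 higher members, the right axis is linear and holds the 4 lower ones. Ets1 goes through 190 CPM at 120h, Sox9 ends at 66.9 CPM, and Tfap2b has 0 counts at 96h and 120h.

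The genotype comparisons at 120h asked whether the edits of the CBS5-10 segment changed the members. They came from 1 fit of all 26 libraries with terms for group and library name, in which lone libraries are assumed to vary like the replicated groups, and 7 of the 8 members were tested, all but Foxd3. No member passed in any of the 5 comparisons. For Ins over Del, 0.00563% of 17769 genes passed, which is the single gene Hoxb13 at a log2 difference of -6.30 ± 0.46 (edgeR adjusted p 1.53e-04). Sox9 differed by 0.02 ± 0.36 log2, Ets1 by 0.28 ± 0.27 and Snai2 by 0.30 ± 0.46 (edgeR adjusted p 1.00 each). Erbb3 averaged 3.29 ± 2.91 CPM in Ins and 6.26 ± 3.11 CPM in Del (SD, n = 3 each), a log2 difference of -1.16 ± 0.45 (edgeR p 0.0248, adjusted 1.00, and adjusted 0.0285 without the filter on low counts). This difference did not pass under 13 of 14 alternatives. The ISML_first libraries had 2.04 and 1.22 CPM of Erbb3 in Ins against 3.09 and 6.39 CPM in Del, and the ISML_second libraries 6.62 against 9.31 CPM. With the replicate number as a block, 2 genes and none of the members passed.

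For InvClone1 over Ins, 0.0169% of genes passed, which are Uty, Ddx3y and Eif2s3y, genes of the Y chromosome. They were lower in InvClone1 by log2 differences of -12.09 ± 1.01, -13.27 ± 0.90 and -12.00 ± 0.92. The lines thus differ in these transcripts as well as in the inversion. Sox9 differed by -0.38 ± 0.52 log2, Erbb3 by 0.46 ± 0.61, Ets1 by -0.11 ± 0.40 and Snai2 by -0.04 ± 0.64, all with an edgeR adjusted p of 1.00. The standard errors of these values show how wide a range the comparison leaves, since both lines share only the name ISML_second.

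The comparisons among InsDel5to10, InsDel7to10 and InvClone2 used 2 ISML_third libraries each. InsDel5to10 over InvClone2, with 0.152% of genes called (0.129% higher and 0.0225% lower), gave Ets1 at 69.6 and 128 CPM in InsDel5to10 against 127 and 185 CPM in InvClone2. That log2 difference was -0.66 ± 0.34 (edgeR adjusted p 0.771, and 0.00505 without the filter, within a range of 1.34e-04 to 1.00 over the alternatives), and Sox9, Snai2 and Erbb3 differed by -0.25 ± 0.45, -0.16 ± 0.56 and 0.23 ± 0.53. In InsDel7to10 over InvClone2, with 0.141% called (0.113% higher and 0.0281% lower), Erbb3 was at 1.76 and 1.14 CPM in InsDel7to10 against 2.88 and 7.80 CPM in InvClone2. The Erbb3 ranges did not overlap, and the log2 difference was -1.89 ± 0.58 (edgeR p 0.00689, adjusted 0.336, and adjusted 1.28e-04 without the filter). This Erbb3 difference did not pass under 12 of 13 alternatives. Sox9, Ets1 and Snai2 differed by -0.19 ± 0.45, 0.24 ± 0.33 and -0.03 ± 0.56 in the same comparison.

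InsDel7to10 over InsDel5to10, with 0.253% called (0.129% higher and 0.124% lower), had the largest differences of Erbb3 and Ets1 among these comparisons. Erbb3 was at 1.76 and 1.14 CPM in InsDel7to10 against 3.55 and 9.0 CPM in InsDel5to10, a log2 difference of -2.12 ± 0.59 (edgeR p 0.00332, adjusted 0.201). DESeq2 gave -2.13 with an adjusted p of 0.0152, and without the filter on low counts edgeR gave 3.01e-06, within a range of 3.01e-06 to 0.975 over the alternatives. Ets1 was at 160 and 208 CPM in InsDel7to10 against 69.6 and 128 CPM in InsDel5to10, a log2 difference of 0.90 ± 0.34 (edgeR p 0.0219, adjusted 0.381, and adjusted 2.07e-06 without the filter). This Ets1 difference did not pass under 12 of 13 alternatives. Both pairs of ranges were apart, and neither gene passed in the edgeR fit of all 26 libraries. The 14 markers of epithelium and endoderm moved with Erbb3. They summed to 114 and 95.3 CPM in InsDel7to10, against 224 and 629 CPM in InsDel5to10 and 222 and 450 CPM in InvClone2. Their median log2 difference was -2.56 for InsDel7to10 over InsDel5to10 and -2.31 over InvClone2, and none of the 14 passed. The 14 sclerotome markers summed to 1429 and 1175 CPM in InsDel7to10 against 692 and 773 CPM in InsDel5to10, beside the Ets1 values. Scx, a factor of tendon progenitors on the sclerotome list, was the only gene of the 11 other lists to pass in a genotype comparison, with 3.13 ± 0.57 for InsDel7to10 over InsDel5to10 (edgeR adjusted p 0.0431). The part of these tissues in the results was not tested. The low members gave no usable difference in any of these comparisons: for Sox10, Tfap2a and Tfap2b the edgeR adjusted p lay between 0.578 and 1.00 at counts of 0 to 19 per library.

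**Figure D4:**
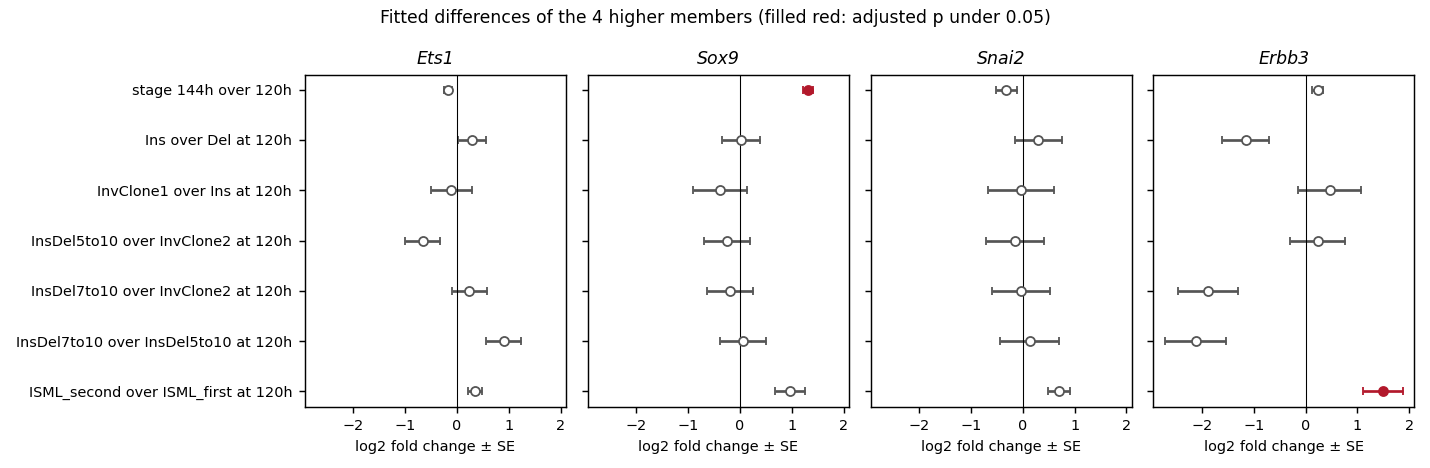
Fitted log2 fold changes with standard errors of Ets1, Sox9, Snai2 and Erbb3 in the 7 comparisons, filled red where the edgeR adjusted p was under 0.05. Red points are Sox9 in the stage comparison, at 1.32, and Erbb3 between library names, at 1.49; no genotype comparison has one.

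Members were also compared between library names within the same lines. ISML_second was set against ISML_first in Ins and Del at 120h, with 1 and 2 libraries of each line, and 15.7% of 15378 genes passed, 8.21% higher and 7.53% lower in ISML_second. Erbb3 was at 6.62 CPM in Ins and 9.31 CPM in Del under ISML_second, against 1.22 to 6.39 CPM in the 4 ISML_first libraries, a log2 difference of 1.49 ± 0.38 (edgeR adjusted p 0.0440). Erbb3 was the only 1 of 4 members tested to pass, and in the fit of all 26 libraries it did not (adjusted p 0.111). Nor did it pass without any 1 of 5 of the 6 libraries, with an edgeR adjusted p of 0.0616 without Ins replicate 2, 0.0801 without Del replicate 1, 0.0814 without Ins replicate 1, 0.152 without Del replicate 3 and 0.391 without Ins replicate 3. The values for Sox9, Snai2 and Ets1 were 0.96 ± 0.29 (0.0796), 0.70 ± 0.22 (0.0661) and 0.35 ± 0.13 (0.104), all positive. These too moved across the threshold: Sox9 passed by DESeq2 (adjusted p 0.00692), Sox9 and Ets1 by edgeR without Ins replicate 2 (0.00234 and 0.0156), and Snai2 by edgeR without Del replicate 2 (0.0370) and without the filter (0.0294). Over all alternatives the adjusted p ran from 0.00234 to 0.450 for Sox9, 0.0294 to 0.442 for Snai2, 0.0156 to 0.533 for Ets1 and 0.00352 to 0.391 for Erbb3. In the same comparison 9 of 16 endothelial markers were higher in ISML_second, with a median log2 difference of 2.79. Likewise 3 of 14 epithelial and endodermal markers were higher, with a median of 1.76. What the names stand for is not stated in the labels, and culture and library preparation cannot be told apart.

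Over the 26 libraries the members did not rise and fall as 1 group. As a description, with libraries that share line, stage and name and with no test, Pearson's r of log2 CPM was 0.75 between Snai2 and Ets1 and 0.78 within the 18 libraries at 120h. Sox9 and Erbb3 had 0.66 over all libraries and 0.54 at 120h, and Ets1 and Erbb3 had 0.11 and 0.15. Sox9 had 0.66 with Sox10 and 0.67 with Tfap2b over all libraries, but 0.21 and 0.14 at 120h alone. The counts of these partners are sparse, so neither the stronger nor the weaker values are read as a finding.

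Summed markers of other tissues varied with the 4 higher members across libraries, often more than 1 list per member. Erbb3 had r = 0.93 with epithelium and endoderm over 26 libraries and 0.97 at 120h, and 0.83 in both with endothelium. With the melanoblast list, a crest derivative, Erbb3 had 0.92 and 0.93. Kit, at a mean of 39.0 CPM, was the highest gene of that list. Ets1 had 0.87 and 0.72 with sclerotome, and 0.69 and 0.74 with the list of sensory and autonomic neurons of crest. Snai2 had 0.72 and 0.85 with endothelium. Sox9 had 0.66 with neural tube progenitors over all libraries but -0.13 at 120h, so that relation did not hold within the stage. With endothelium Sox9 had 0.70 and 0.76, close to its 0.81 and 0.72 with the list of crest delamination and migration, and at 120h it also had 0.65 with sclerotome and 0.63 with notochord. Snai2 likewise had 0.79 with the delamination list at 120h, but 0.20 over all libraries. Every epithelial, endothelial and sclerotome marker list had all of its genes above 3 counts in some library.

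**Figure D5:**
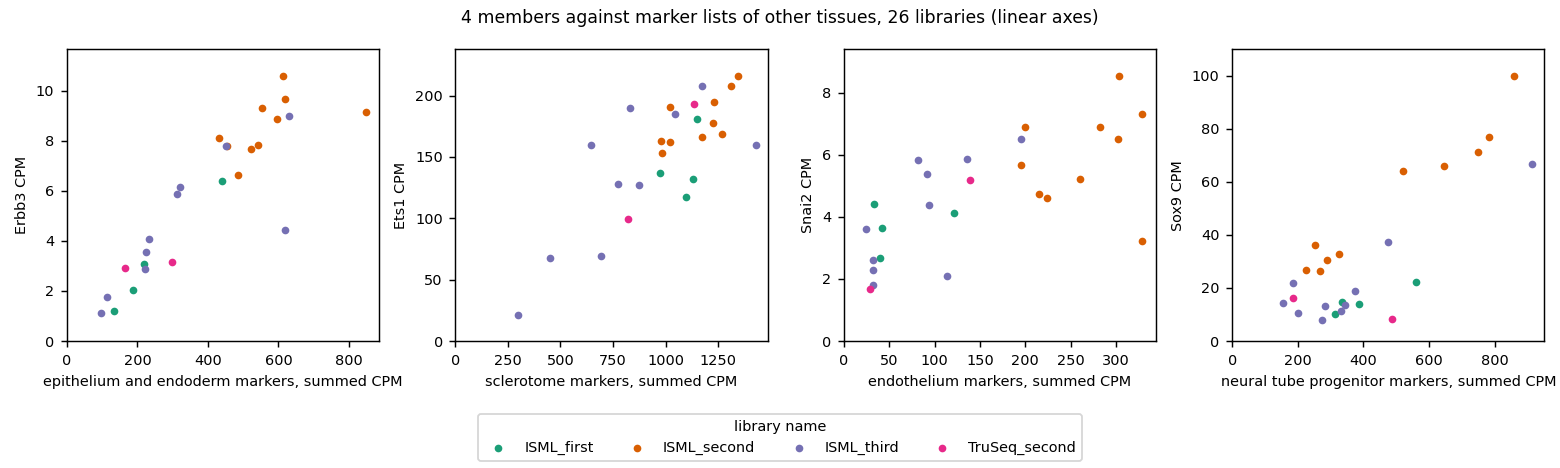
CPM of Erbb3, Ets1, Snai2 and Sox9 against the summed CPM of marker lists of epithelium and endoderm, sclerotome, endothelium and neural tube progenitors, 1 point per library, linear axes, coloured by library name. Erbb3 follows the epithelial sum with r = 0.93, and Sox9 against neural tube markers has r = 0.66 over all libraries and -0.13 at 120h.

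Among 12237 genes with a mean of at least 1 CPM, those most alike in pattern over the 26 libraries were found by Pearson's r. For Erbb3 these were Ppl, Epcam and Podxl (0.94 each), of which Epcam is itself on the epithelial list. For Snai2 they were Fli1 (0.91), an ETS factor of endothelium, Flrt2 (0.86) and Twist1 (0.82), a factor of mesenchyme. Sox9 was most like Ero1lb (0.96), the cartilage collagen gene Col9a1 (0.94) and Ly6h (0.94), and Ets1 most like Tdrd7 (0.96), Rab3il1 (0.95) and Sh3bp5 (0.94). Of the low members, Tfap2b came nearest to Abcc4 (0.88), Nuak1 (0.87) and Cyp1b1 (0.87), and Sox10 to Bsn (0.79), Gbx1 (0.78) and H2-D1 (0.77). Tfap2a reached 0.72 with Pcdh10, 0.68 with Zfp36 and 0.68 with Stat3, and Foxd3 0.68 with Mllt11, 0.61 with Ntng1 and 0.60 with Txnip. Counts of the last 4 members were too sparse for these likenesses to be read as findings.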

How the data were processed

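The labels of the 26 RNA-seq libraries gave genotype, stage and library name. The authors deposited a table of whole-number counts per gene, not normalized, and a table of FPKM values for 55138 genes. The submitters' processing notes name mm10 and the tools Cufflinks 2.2.1, STAR 2.7.10a and cutadapt 1.18. Version and strand setting of the counting step, and the annotation used, are not given in the sources, so reads of overlapping or antisense genes cannot be told apart. Positions come from the FPKM table. Of the columns, 8 (4 in each table) matched no sample and were not used. What i9-13 and CBS stand for is likewise not stated.

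Tests of the deposited counts used R 4.3.3 and the package edgeR 4.0.16 (robust quasi-likelihood F-test, TMM, filter with a minimum count of 10, Benjamini-Hochberg over all genes tested, threshold 0.05). The 5 genotype comparisons came from 1 fit of all 26 libraries with group and library name (8 residual degrees of freedom), the stage comparison from 10 libraries with line and stage (4) and the check of names from 6 libraries with line and name (3). CPM are counts over TMM-scaled totals. Pearson's r used log2(CPM + 0.5). Alternatives were DESeq2 1.42.0, its size factors, no filter, a minimum count of 50, other sets of libraries or terms, and each library left out. In the stage comparison a library was left out together with the other library of its line. Replicates differed beyond sampling noise (chi-square of 10.4 to 138 per degree of freedom). Same-numbered Ins and Del libraries deviated together (r = 0.51, 0.26 and 0.64). They also share a library name, which was not taken out of these deviations. The r values therefore cannot show a pairing beyond the name, and the blocked count is given only beside that result.

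On simulated counts (dispersion 0.05), 78% of 2-fold and 94% of 4-fold changes were recovered in the stage comparison, 44% and 91% for Ins over Del, 15% and 89% for InsDel7to10 over InsDel5to10, and 44% and 96% between library names. The simulated libraries had the same dispersion for every gene and no effect of line or library name. These rates therefore do not carry over to genes that vary more, such as Erbb3 (3.29 ± 2.91 CPM in Ins at 120h, SD, n = 3).

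The members and the 11 other lists (155 entries) were chosen with earlier results of these data known. Named genes are the members, up to 4 per list with the smallest adjusted p in the stage comparison, and the 3 genes most alike to each member, leaving out predicted models and Rik clones; list genes named beside a count of few were chosen after their values were seen. A few genes under this rule are not reported here.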

Additional observations from a re-analysis of the deposited data

Results flagged for a closer look

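In 8 sets of 4 InvClone1 libraries at 120h, 1 for each member, the library farthest from the others was compared with Dixon's limit, which chance alone passes in about 1 in 20 sets. Ets1 was at 99.2 CPM in InvClone1 at 120h replicate 2, against 178 to 193 CPM in the other 3 libraries. That library carries the name TruSeq_second, and it is the one in which more genes were detected than elsewhere. Foxd3 was at 0.386 CPM in InvClone1 at 120h replicate 4, an ISML_second library, which is 10 counts against 0, 0 and 2 counts in the others.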

How the results depend on the processing

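Of 538 values of single members under an alternative, 478 kept their direction and their side of the threshold, 14 passed only under the alternative, 6 no longer passed and 40 changed sign. Each stage fit without a line is counted in these under both libraries of that line. The Sox9 rise with stage kept both under every alternative run, with log2 values of 1.22 to 1.38 and adjusted p of 6.62e-27 to 0.00762. In the stage comparison the fit of all 26 libraries called 2 of 7 members tested, adding Tfap2b, which met the minimum count there only through libraries later than 120h. Among all 17769 genes tested, that fit called 1028 higher and 729 lower. Without the filter on low counts the genes called were 89 for Ins over Del, 9 for InvClone1 over Ins, 383 for InsDel5to10 over InvClone2, 554 for InsDel7to10 over InvClone2, 957 for InsDel7to10 over InsDel5to10 and 3643 between library names. The members among them were 1 (Erbb3, adjusted p 0.0285), 0, 1 (Ets1, 0.00505), 1 (Erbb3, 1.28e-04), 2 (Erbb3 and Ets1) and 2 (Erbb3 and Snai2). The genes tested without the filter were 37141 in each genotype comparison and 27442 between library names, with all 8 members among them. DESeq2, with 17769 genes in each genotype comparison, called 2 genes for Ins over Del, 46 for InsDel5to10 over InvClone2, 161 for InsDel7to10 over InvClone2 and 289 for InsDel7to10 over InsDel5to10, with 1 member, Erbb3, in the last. Between library names it called 1413 genes higher and 1440 lower of 15378, with 2 members among them. Without the library term 6, 0 and 7 genes passed in the comparisons InsDel5to10 over InvClone2, InsDel7to10 over InvClone2 and InsDel7to10 over InsDel5to10. With the compared libraries only, 0 passed for Ins over Del, 0 for InsDel7to10 over InvClone2 and 4 for InsDel7to10 over InsDel5to10. The fit of all 26 libraries called 409 genes and 0 members between library names. The cause of these moves was not tested.

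With the replicate number as a block, 2 genes were called for Ins over Del, 0 for InvClone1 over Ins, 932 for InsDel5to10 over InvClone2 with 1 member (Ets1, -0.68, adjusted p 1.34e-04), 0 for InsDel7to10 over InvClone2 and 3 for InsDel7to10 over InsDel5to10. In the last 4 of these, same-numbered libraries correlated at 0.06 to 0.40, 0.32, -0.22 and -0.15. The labels pair no libraries by number, so none of the blocked fits is read as a paired one. With the numbers crossed, an alternative chosen after seeing the data, 0 and 4 genes were called in the last 2.

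Directions that turned belonged to differences that did not pass. Sox9 for Ins over Del was -0.06 without the library term, -0.06 with the compared libraries only and -0.05 with the replicate block. For InvClone1 over Ins, Tfap2b was 0.60 and Snai2 0.01 without the library term, Snai2 was 0.01 with the compared libraries only, and Tfap2b was 0.10 and Snai2 0.12 without the 2 libraries that stood apart (chosen after seeing the data). Snai2 for InsDel7to10 over InvClone2 was 0.11 with the replicate block and 0.10 with the crossed block.

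Each library was left out in turn, and for the stages both libraries of a line. The genes called then ran from 1424 (without InsDel8to10) to 4934 (without InvClone1) for the stages, with 1 to 2 members. For InvClone1 over Ins the genes called ran from 3 to 303 (without InvClone1 replicate 4). They ran from 3 to 9 for InsDel5to10 over InvClone2, from 0 (without InvClone2 replicate 1) to 295 (without InsDel7to10 replicate 1) for InsDel7to10 over InvClone2, and from 3 (without InsDel5to10 replicate 1) to 939 (without InsDel7to10 replicate 2) for InsDel7to10 over InsDel5to10. Between library names they ran from 43 (without Ins replicate 3) to 2688, with 0 to 2 members. Log2 differences of members whose sign turned ran, for Ins over Del, from -0.40 to 0.24 in Sox9 and from -0.89 to 2.80 in Sox10. For InvClone1 over Ins they ran from -0.18 to 0.03 in Ets1, -0.64 to 0.13 in Snai2, -1.85 to 2.19 in Sox10 and -4.90 to 1.01 in Tfap2b. For InsDel5to10 over InvClone2 they ran from -0.64 to 0.30 in Sox9, -0.99 to 0.65 in Snai2, -0.59 to 1.13 in Erbb3, -3.20 to 2.45 in Sox10 and -1.99 to 0.97 in Tfap2a. For InsDel7to10 over InvClone2 they ran from -0.63 to 0.36 in Sox9, -0.53 to 0.78 in Snai2, -0.01 to 0.53 in Ets1, -0.78 to 3.43 in Sox10 and -2.49 to 0.46 in Tfap2a. For InsDel7to10 over InsDel5to10 they ran from -0.38 to 0.41 in Sox9 and -0.39 to 0.96 in Snai2.

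Groups of 1 to 4 libraries limit the genotype comparisons, and counts of 0 to 19 limit Sox10, Foxd3, Tfap2a and Tfap2b in every comparison.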
